A study of Mus musculus with 23 samples.

Results

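The cells described here are those that fell into the highest and the lowest fluorescent gate after mice had received a control human IgG that targets no brain receptor. The members are the cell barcodes of the 4 control IgG libraries sorted as high (pools 1 and 2) and low (pools 1 and 2) that held at least 500 genes, at least 800 unique molecular identifiers (UMIs, each counting 1 captured RNA molecule) and at most 10% mitochondrial UMIs. They numbered 7367 of the 249715 barcodes that passed the same limits in all 23 libraries of the series: 526 and 725 in high pools 1 and 2, and 2247 and 3869 in low pools 1 and 2. After 112 predicted doublets were removed, 7255 cells remained for the comparison.

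Every mouse behind these libraries was a C57BL/6 animal labelled as 3.3 months old (the series text gives 12 weeks), with no knock-in allele, dosed at 45 mg/kg through the tail vein with the antibody labelled DNP02_hIgG1_LALAPG_Alexa647. This is a human IgG1 coupled to a far-red dye, with Fc substitutions (LALAPG) known to weaken binding to Fc gamma receptors. Brains without the olfactory bulbs and the hindbrain regions were taken after 24 hours and after perfusion, and each pool joined the dissociated cells of 1 male and 1 female. Actinomycin D and anisomycin were present during dissociation. The low, medium and high gates were set as tertiles of the labelled cells of another treatment group, one given a transferrin receptor-binding antibody, and were then used for all groups, so they do not divide the control IgG cells into equal parts. About 1% of live cells of the control IgG brains were fluorescent at all, per the labels. The 2 pools of a bin are the replicates, the same numbered pool supplied each bin, and the medium bin (2 libraries) entered the fits to share its estimate of spread. The negative bin (pool 2 alone) entered the fits too, but as a single library with its own mean it added nothing to that estimate.

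Untargeted IgG crosses an intact blood-brain barrier poorly. The cells that meet plasma proteins first lie at the borders: endothelial cells of the vessel wall, fibroblasts of the meninges and perivascular spaces, the epithelium of the choroid plexus, and the macrophages that live beside them. Border macrophages take up macromolecules from cerebrospinal and interstitial fluid through scavenger and lectin receptors and through Fc gamma receptors. They are described in 2 main states, one rich in Lyve1, Cd163 and Folr2 and one rich in MHC class II. The neonatal Fc receptor, encoded by Fcgrt and B2m, returns internalised IgG from endosomes to the cell surface and so spares it from lysosomes.

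Cells of the high bin held fewer UMIs than those of the low bin, with medians of 2177.5 and 3198.5 per cell in high pools 1 and 2 against 4537.5 and 4963.0 in low pools 1 and 2. The bins held different cell classes, as described next, and within border macrophage-like cells the medians were 1781 and 2157 in high and 1888 and 2904 in low. The 4 libraries shared from 0 to 2 cell barcodes with one another. Clusters were named from fixed markers as "like" cells, and 15 classes and 1 unnamed cluster resulted.

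Border macrophage-like cells made up most of the high bin. They were 403 of 518 cells (77.8%) in high pool 1 and 400 of 718 cells (55.7%) in high pool 2, against 219 of 2198 (9.96%) and 320 of 3821 (8.37%) in low. The mean share was 66.8% ± 15.6 (SD, n = 2) in high, 27.3% ± 3.21 in medium and 9.17% ± 1.12 in low, so the share stood higher in each brighter bin. Their number per kept cell rose by 2.86 on the log2 scale from low to high (SE 0.30, edgeR quasi-likelihood test, Benjamini-Hochberg adjusted p = 2.0e-11 over 14 classes). It was the 1 class of the 14 tested that rose (7.14%), while 6 fell (42.9%). Shares of a whole are bound to one another, so the rise of one class lowers the others. In cells assigned to an animal by sex-specific RNA, the share in low was 7.20% and 6.24% for the males and 11.6% and 9.48% for the females. In high it was 64.9% and 38.4% for the males and 84.3% and 72.4% for the females, so the high value lay above the low value in each of the 4 animals.

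Endothelial-like cells went the other way. They were 1038 (47.2%) and 2322 (60.8%) of the cells in low, and 10 (1.93%) and 15 (2.09%) in high. Their number per kept cell fell by 4.74 on the log2 scale (SE 0.37, edgeR adjusted p = 6.0e-15), and the mean share passed from 54.0% ± 9.58 in low through 4.72% ± 1.04 in medium to 2.01% ± 0.112 in high (SD, n = 2 each). Several rarer classes were lower in high as well. Neutrophil-like cells were 65 (2.96%) and 55 (1.44%) in low and 0 in both high libraries, which allows a share of up to 0.579% and 0.418% (3 cells of the total, counting error only; edgeR adjusted p = 0.00024). Microglia-like cells, the macrophages of the brain tissue itself, were 26 (1.18%) and 25 (0.654%) in low and also 0 in both high libraries (edgeR adjusted p = 0.0011). The unnamed cluster, described below, was not counted among them, although its best match was 3 of 10 microglia markers. B cell-like cells, a cluster that matched 10 of 10 B cell and 9 of 12 T or NK cell markers, were 47 and 58 in low and 0 and 1 in high (edgeR adjusted p = 0.0024). At a coarser clustering (Leiden resolution 0.5) their difference was -1.41 (adjusted p = 0.067). Pericyte-like cells, the mural cells of capillaries, were 36 and 71 in low and 1 and 0 in high (edgeR adjusted p = 0.00029). The calls of the microglia-like, B cell-like and pericyte-like classes were lost among cells outside the border macrophage-like class (adjusted p = 0.052 each). The neutrophil-like call was lost at 1000 genes per cell (-7.47, adjusted p = 0.078), and in male cells alone both the neutrophil-like (adjusted p = 0.19) and the B cell-like call (adjusted p = 0.27).

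Fibroblast-like cells had nearly the same share in both bins. They were 299 (13.6%) and 366 (9.58%) of the cells in low and 65 (12.5%) and 95 (13.2%) in high, with a log2 difference of 0.16 (SE 0.29, edgeR adjusted p = 0.63). In the medium bin their share was 31.7% ± 1.62 (SD, n = 2). The result for this class turned on what it was counted against: among cells outside the border macrophage-like class the difference was 1.71 (edgeR adjusted p = 0.0029), and among cells outside the endothelial-like class it was -0.93 (edgeR adjusted p = 0.00028). With TMM factors over the classes it was 0.91, also called (edgeR adjusted p = 0.0030). Choroid plexus epithelial-like cells were 379 (17.2%) and 432 (11.3%) in low and 28 (5.41%) and 76 (10.6%) in high, a fall by 0.80 on the log2 scale (SE 0.30, edgeR adjusted p = 0.022). Outside the border macrophage-like class that difference was 0.62, of the opposite sign. The call was also lost with TMM factors (-0.087, adjusted p = 0.86), without high pool 1 (-0.42, adjusted p = 0.49), without low pool 1 (-0.46, adjusted p = 0.16) on the 4 libraries alone (-0.81, adjusted p = 0.11), at Leiden resolution 2 (adjusted p = 0.058), at 1000 genes per cell (-0.55, adjusted p = 0.12), in male cells (-0.33, adjusted p = 0.47) and in female cells (-0.35, adjusted p = 0.77). Monocyte-like cells were 1.91% and 1.70% in low and 1.16% and 1.39% in high, without a call (edgeR adjusted p = 0.60). This cluster matched 8 of 12 dendritic and 6 of 10 monocyte markers, with Napsa, Plbd1 and Wdfy4 among its leading genes and H2-Aa at 3748 CPM, so the class holds dendritic cell RNA beside that of monocytes.

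**Figure D1:**
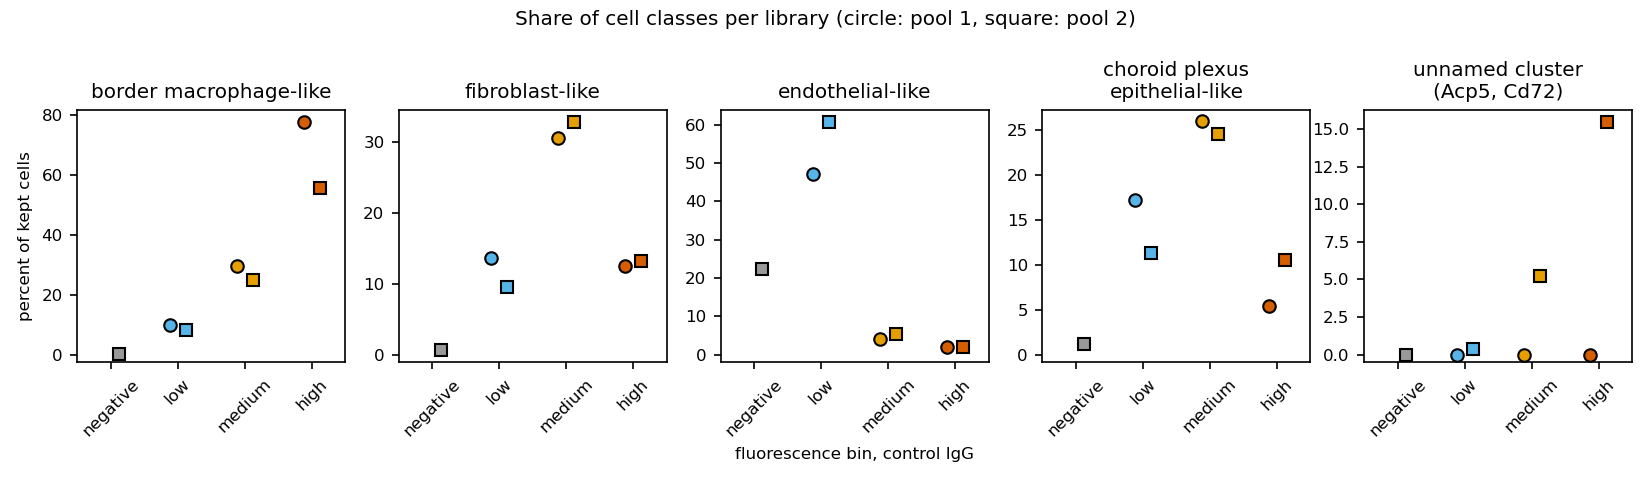
Percent of kept cells per library (y axis) in each fluorescence bin of the control IgG animals (x axis), 1 panel per class, circles for pool 1 and squares for pool 2. Border macrophage-like cells reach 55.7% and 77.8% in high, endothelial-like cells lie at 1.93% and 2.09% there, and fibroblast-like cells peak in the medium bin.

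The border macrophage-like class itself changed in composition between the bins. It was made mainly of cluster 10, led by the MHC class II genes H2-Eb1, H2-Aa, Cd74 and H2-Ab1 with Ms4a7, and of cluster 9, led by F13a1, Pf4, Mrc1, Cd163 and Lyve1. Over all control IgG cells, H2-Aa stood at 5751 counts per 1000000 UMIs of the class or cluster (CPM) in cluster 10 and 131 in cluster 9, and Lyve1 at 1.65 in cluster 10 and 484 in cluster 9. Cluster 10 held 34.7% and 51.3% of the class in low, 69.5% and 77.7% in medium, and 95.5% and 96.5% in high. Cluster 9 held 63.0% and 45.6% in low, 30.0% and 20.8% in medium, and 4.47% (18 cells) and 3.5% (14 cells) in high. The libraries of low and high did not overlap in either cluster. These shares carry no test, because the clusters were made from the same RNA. Cluster 10 matched 4 of the 12 border macrophage markers and 3 of the 10 microglia markers, and the microglia gene P2ry12 stood at 179 CPM in it against 2222 in the microglia-like cluster, with Sall1, a transcription factor specific to microglia among brain macrophages, at 0.

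**Figure D2:**
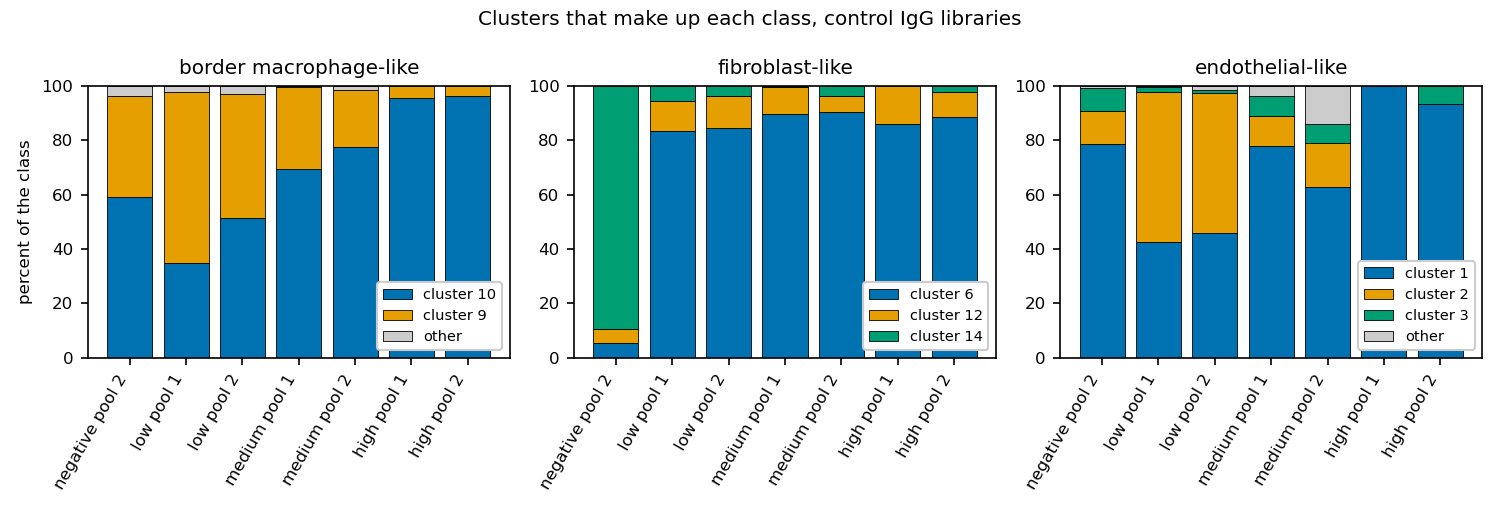
Percent of each class (y axis, stacked bars) held by its clusters in each control IgG library (x axis). In the border macrophage-like panel cluster 10 takes 34.7% and 51.3% in low and 95.5% and 96.5% in high, whereas cluster 6 takes most fibroblast-like cells in low, medium and high alike.

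UMIs were then summed per class and library, and 9173 genes passed the count filter in border macrophage-like cells. There 26 genes were higher in high than in low (0.283%) and 68 were lower (0.741%), by edgeR at an adjusted p below 0.05. At an unadjusted p below 0.05 stood 946 of the 9173, in either direction. With the pool as a block, since both bins came from the same animals, 310 were higher (3.38%) and 326 lower (3.55%). The count of 94 in all (1.02%) became 60 without high pool 1, 54 without high pool 2, 65 without low pool 1 and 46 without low pool 2. All these values are differences in CPM of the class, in which fewer cells of one state and less RNA per cell cannot be told apart.

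Genes that fell furthest included surface receptors and secreted factors of the Lyve1-rich state. Lyve1, a hyaluronan receptor on chromosome 7 (7:110850607-110863239, minus strand, GRCm38), stood at 325 and 172 CPM in low and 2.19 and 7.91 in high, and fell by 5.51 on the log2 scale (SE 0.46, adjusted p = 7.7e-06). Clec10a, a galactose-binding C-type lectin (11:70156197-70170834), stood at 215 and 187 CPM in low and 8.78 and 8.90 in high, and fell by 4.48 (SE 0.33, adjusted p = 1.9e-06). For both genes each high library lay far below each low library. Folr2, a folate receptor of tissue-resident macrophages, stood at 245 and 92.4 CPM in low and 17.6 and 6.92 in high. Ccl24, an eosinophil-attracting chemokine, stood at 115 and 185 CPM in low and 17.6 and 21.8 in high. F13a1, the coagulation factor XIII A chain, stood at 1542 and 1121 CPM in low and 347 and 370 in high, a fall by 1.90 (SE 0.24, adjusted p = 0.00035). Libraries that did not overlap between bins were a condition for naming these genes, and 20.0% of all genes tested lay lower in this way. All 5 genes kept the call when any 1 of the 4 libraries was left out. Tslp, Clec4n, Pla2g2d, Pomk and Mgl2 also fell, by 2.13 (Mgl2) to 3.56 (Tslp). Pla2g2d and Pomk kept the call in 1 of the 4 fits that left out a library and Mgl2 in 3. Tslp kept it in all 4, at -6.11 without high pool 1. Ptgds, the prostaglandin D synthase whose RNA was highest in oligodendrocyte-like cells, fell by 4.28 within this class.

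The gene lists, that of scavenger and lectin receptors included, were chosen with earlier results of these data known. Their counts are no independent sign of direction. In the scavenger and lectin list 7 of the 18 receptors tested (24 members) fell by edgeR, where 0.741% of all genes did, 11 were not called and none rose (DESeq2 also called 0 and 7, and 9 were lower at an unadjusted p below 0.05), with a median log2 difference of -0.78 against -0.00 over all genes tested. Beside Lyve1, Clec10a and Clec4n these were Colec12, a collectin that binds modified lipoproteins, and 3 C-type lectins of the Cd209 family. Colec12 stood at 217 and 212 CPM in low and 37.3 and 32.6 in high. Cd209f gave 117 UMIs in low and 1 in high, a ratio of 157 in CPM with a counting interval of 27.7 to 6263. Cd209g gave 43 UMIs in low and 0 in high, at least 19.3-fold lower, and Cd209a gave 37 and 0, at least 16.6-fold lower, both against a floor of 3 counts over the 2 high libraries. Other scavenger receptors were not called. Mrc1, the mannose receptor, stood at 2321 and 1791 CPM in low and 1591 and 1776 in high, Stab1 at 1648 and 1154 against 1068 and 1190, and Msr1 at 81.8 and 101 against 99.8 and 113. Cd163, the haemoglobin scavenger receptor, stood at 438 and 272 CPM in low and 196 and 123 in high, with adjusted p = 0.061, and adjusted p = 1.2e-08 with the pool as a block.

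Of the 16 resident border macrophage genes, several of which stand on both lists, none rose and 6 fell (DESeq2 0 and 6, 10 lower at an unadjusted p below 0.05), with a median of -1.20 against -0.00 over all genes tested, of which 0.741% fell. The list was drawn up with results of these cells known and is no independent sign of direction. Ednrb, an endothelin receptor, was among them with 85 UMIs in low and 2 in high. Iron and lipid genes gave 1 call among 13 tested, Slc40a1, the iron exporter ferroportin, at 133 and 110 CPM in low and 18.7 and 9.89 in high. With the pool as a block 11 resident genes were lower and 0 higher, and 5 iron and lipid genes were lower and 1 higher. Of all genes 3.55% were lower and 3.38% higher with the block. Lysosomal genes gave 1 call among 28 tested by edgeR and none by DESeq2 (10 lower at an unadjusted p below 0.05), where edgeR called 0.741% of all genes lower. It was Ctsl, the protease cathepsin L, at 221 and 235 CPM in low and 99.8 and 132 in high. For 19 of those 28 both high libraries lay below both low libraries, where 20.0% of all genes tested did so, and 9 were lower with the pool as a block, as were 3.55% of all genes. The median of the lysosomal list was -0.36.

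Among genes for IgG binding (5 on the Fc gamma list and 3 for the neonatal receptor and cytosolic antibody binding, all tested), 1 was called. Of all genes 0.283% rose and 0.741% fell. Fcgr4, an activating Fc gamma receptor (1:171018920-171029761, plus strand), stood at 42.9 and 42.5 CPM in low and 105 and 119 in high, and rose by 1.38 on the log2 scale (SE 0.24, adjusted p = 0.0067). Medium lay between, at 84.8 and 89.7. None of the other 4 genes on the Fc gamma list was called. Fcgr1 stood at 266 and 240 CPM in low and 302 and 213 in high, Fcgr2b, the inhibitory receptor, at 462 and 278 against 303 and 250, and Fcgr3 at 434 and 407 against 397 and 364. Fcer1g, the signalling chain shared by the activating receptors, stood at 2936 and 3017 against 2577 and 2209. Differences of these 4 ran from -0.41 to 0.02 on the log2 scale. Fcgrt, the heavy chain of the neonatal receptor, stood at 264 and 195 CPM in low and 162 and 142 in high, a difference of -0.59 (SE 0.26) with adjusted p = 0.42, and adjusted p = 0.018 with the pool as a block. Neither receptor bound by the study's targeted antibodies was called here: Slc3a2 (CD98 heavy chain) stood at 196 and 151 CPM in low and 194 and 142 in high, and Tfrc (transferrin receptor) at 22.5 and 15.9 against 6.58 and 6.92, with adjusted p = 0.32.

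The gene with the largest rise was Cxcl9, known as a target of interferon gamma. This T cell-attracting chemokine (5:92321347-92328079, minus strand), stood at 16.4 and 0 CPM in low and 199 and 150 in high, a rise by 4.86 on the log2 scale (SE 0.54, adjusted p = 8.4e-05). In medium it lay at 4.04 and 1.69, below both high libraries and below low pool 1. Cxcl9 passed the count filter through the high libraries alone, so it was tested only because it was high there. Iigp1, an immunity-related GTPase, stood at 53.2 and 10.6 CPM in low and 197 and 149 in high, and Zbp1, a sensor of left-handed nucleic acid, at 34.8 and 22.3 against 77.9 and 76.1. Rad51b, a gene of homologous recombination spanning a long stretch of chromosome 12 (12:79297282-79814690), stood at 139 and 92.4 CPM in low and 589 and 479 in high, and rose by 2.23 (SE 0.26, adjusted p = 0.00015). Adam19, B4galt6, Parp11 and Hivep2 rose by 1.11 to 1.32, and Slc13a3, highest in astrocyte-like cells, by 3.10. Libraries that did not overlap between bins were a condition for naming these genes, and 20.9% of all genes tested lay higher in this way. Fcgr4 and Iigp1 lost the call without low pool 2 (adjusted p = 0.16 and 0.087), Fcgr4 also without low pool 1 (0.059), and Zbp1 and Parp11 without any 1 of the 4 libraries. Adam19, B4galt6 and Hivep2 kept the call in 1 of these 4 fits and Slc13a3 in 2, while Cxcl9 and Rad51b kept it in all 4. The size for Cxcl9 moved to 9.85 without low pool 1 and to 3.395 without low pool 2. Of the 16 interferon-stimulated genes on the list none was called in either direction by edgeR or DESeq2, and their median was 0.23. At an unadjusted p below 0.05 stood 5, all higher, where 946 of all 9173 genes tested did so in either direction. With the pool as a block 5 were higher, as were 3.38% of all genes. Ifi27l2a, one of these 5, stood at 554 and 315 CPM in low and 1387 and 551 in high.

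The 250 bases before the start sites of Cxcl9 and Fcgr4 are shown because these genes encode the chemokine and the Fc receptor that rose. They are given 5′ to 3′ on the gene's strand, from RefSeq on GRCm38.p6 (Cxcl9 at chr5:92328080-92328329, minus strand, and Fcgr4 at chr1:171018676-171018925, plus strand), with capitals for a match on either strand of GAAANNGAAA, the core of interferon response elements, or TTCNNNGAA, the core bound by STAT dimers.
Cxcl9: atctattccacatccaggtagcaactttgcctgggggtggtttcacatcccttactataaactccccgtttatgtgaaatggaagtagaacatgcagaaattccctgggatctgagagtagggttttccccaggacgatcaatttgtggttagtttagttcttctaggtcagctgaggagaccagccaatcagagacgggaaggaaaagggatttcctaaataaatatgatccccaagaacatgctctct
Fcgr4: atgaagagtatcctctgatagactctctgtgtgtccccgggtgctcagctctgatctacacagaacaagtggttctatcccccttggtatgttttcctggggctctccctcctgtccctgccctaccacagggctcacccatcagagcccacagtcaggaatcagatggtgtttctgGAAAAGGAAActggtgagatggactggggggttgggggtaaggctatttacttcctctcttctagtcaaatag
The Fcgr4 window held 1 match to GAAANNGAAA and the Cxcl9 window held neither motif. Of 32851 RefSeq windows of the same length, 978 (2.98%) held GAAANNGAAA and 2306 (7.02%) held TTCNNNGAA. A match is a description of letters, not evidence of a bound site.

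MHC class II genes, although they lead cluster 10, were not called within the class. H2-Aa stood at 3889 and 3053 CPM in low and 5998 and 4049 in high, H2-Ab1 at 5067 and 3570 against 5920 and 3833, and Cd74, the invariant chain, at 15490 and 10205 against 15520 and 8540. Of the 10 tested, none was called in either direction by edgeR or DESeq2 (1 higher at an unadjusted p below 0.05), and the median was 0.31. Ciita, the master regulator of the group, stood at 79.7 and 96.6 CPM in low and 136 and 211 in high, with adjusted p = 0.11, and adjusted p = 0.00012 with the pool as a block. Of 20 genes of endocytic traffic and 18 immediate early and heat shock genes none was called by edgeR or DESeq2, with 5 and 1 at an unadjusted p below 0.05. With the pool as a block 1 endocytic gene was higher and 2 lower, and 1 gene of the other list was higher and 1 lower. Of all genes 3.38% were higher and 3.55% lower with the block.

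Markers of other cells moved with these results. The 12 endothelial markers summed to 170 and 110 CPM in border macrophage-like cells of low and 9.87 and 11.9 in high, the fibroblast markers to 341 and 208 against 13.2 and 29.7, and the choroid plexus markers to 395 and 565 against 48.3 and 94.9. Microglia markers summed to 2975 and 3739 CPM in low and 3933 and 4064 in high. Cldn5, an endothelial junction gene, gave 55 UMIs in low and 0 in high, at least 24.6-fold lower. Without cells that held 2 or more UMIs of another class's markers, 19 genes were higher and 56 lower, with Lyve1 at -5.52 and Cxcl9 at 4.79. In that fit Pla2g2d (edgeR adjusted p = 0.0501), Parp11 (0.058) and Zbp1 (0.062) lost the call. The part of these markers in the other results was not tested.

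A single unnamed cluster bears on every gene that rose. Cluster 25 had macrophage RNA (C1qa 4367 CPM, Fcrls 2568, Ms4a7 603) with little Mrc1 (78.0 CPM) or H2-Aa (9.60), and it was left out of the class. Its best match was 3 of 10 microglia markers, ahead of 2 of 12 border macrophage markers, and it was not counted as microglia-like either. Cluster 25 held 111 of the 718 cells of high pool 2 (15.5%) and none of high pool 1. With these cells included in the class, 0 genes were higher and 20 lower of 9658 (0.207%) by edgeR, while 733 genes in either direction had an unadjusted p below 0.05. The log2 difference then was 4.62 for Cxcl9 (adjusted p = 0.084), 1.33 for Fcgr4 (adjusted p = 0.057) and 1.99 for Rad51b (adjusted p = 0.10). Of the lower genes, Lyve1 and Clec10a (adjusted p = 0.0065 each), Ccl24 (0.013), Ptgds (0.013) and F13a1 (0.044) kept the call, while Folr2 (0.063), Clec4n (0.074), Tslp (0.098), Pomk (0.13), Mgl2 (0.29) and Pla2g2d (0.31) lost it, with differences from -4.03 (Folr2) to -2.30 (Pomk). DESeq2, on the class without cluster 25, called 4 genes higher and 27 lower, with Rad51b among the higher. It did not call Cxcl9 (log2 difference 4.45, adjusted p = 1.0) or Fcgr4 (1.37, adjusted p = 0.44), nor the higher genes Hivep2 (adjusted p = 0.13), B4galt6 (0.39), Adam19 (0.44), Slc13a3 (0.55), Iigp1 (0.70), Zbp1 (0.89) and Parp11 (1.0), nor the lower genes Tslp (adjusted p = 0.20), Mgl2 (0.38), Pla2g2d (0.74) and Pomk (0.80).

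**Figure D3:**
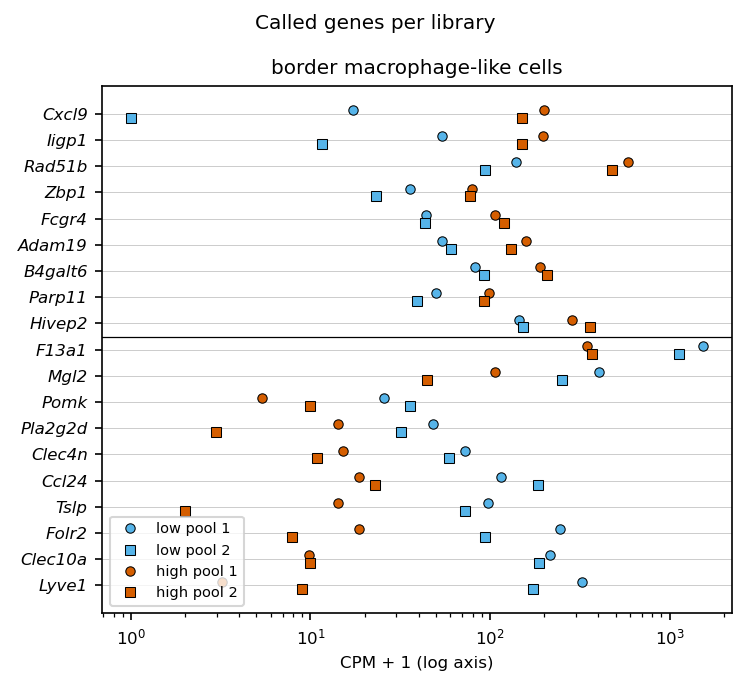
Level of each named gene (rows) in border macrophage-like cells as CPM + 1 on a log axis, with 1 point per library of the low and high bins. Lyve1 and Clec10a lie far to the left in both high libraries, and Cxcl9 and Rad51b to the right.

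Because cluster 10 held nearly all of the class in high and a smaller part in low, the comparison was repeated within it, on 76 and 164 cells of low and 385 and 386 of high. Its cells held a median of 2939 and 3451.5 UMIs in low and 1786 and 2159 in high. The part of this difference in depth in the cluster's calls was not tested. This alternative was added after the clusters had been seen, and the cluster was defined on the same RNA. There 69 genes of 8550 were higher (0.807%) and 62 lower (0.725%), and 24 of these 131 were also called in the whole class. Within the cluster 4 of 12 scavenger and lectin receptors tested rose and none fell, with a median of 0.99. Mrc1 stood at 512 and 305 CPM in low and 1505 and 1692 in high, a rise by 1.80 on the log2 scale (adjusted p = 0.0081). Stab1 stood at 342 and 400 CPM in low and 991 and 1126 in high, a rise by 1.32 (adjusted p = 0.017), and Msr1 at 17.1 and 26.2 against 102 and 113, a rise by 2.02 (adjusted p = 0.0074). For all 3 both high libraries lay above both low libraries, as did 20.9% of all genes tested in the whole class. That share was not counted within the cluster. Siglec1, a sialic acid-binding receptor that captures vesicles and viruses, rose by 1.95 (adjusted p = 0.017). Of 11 resident genes 3 rose, with a median of 1.19. None of the 10 MHC class II genes was called, and their median was -0.63, of the opposite sign to that in the whole class. Genes called lower across the class lost the call within the cluster: F13a1 differed by 0.19 (adjusted p = 0.89), Clec10a by -1.22 (0.46), Folr2 by -0.82 (0.78) and Mgl2 by -1.36 (0.31). Ptgds kept it at -2.88 (adjusted p = 0.024), and Lyve1, Tslp, Ccl24, Clec4n, Pla2g2d and Pomk did not pass the count filter there.

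Cxcl9, Iigp1 and Rad51b rose within cluster 10 as well. Cxcl9 stood at 34.2 and 0 CPM in low and 206 and 156 in high (log2 rise 3.88, adjusted p = 0.0032), Iigp1 rose by 4.06 and Rad51b by 2.80. Adam19 (edgeR adjusted p = 0.018) and B4galt6 (0.012) kept the call too. Fcgr4 did not keep its call there, with a difference of 0.46 (adjusted p = 0.48). Parp11 (adjusted p = 0.075), Slc13a3 (0.089), Zbp1 (0.13) and Hivep2 (0.28) lost it as well. Oasl2, an interferon-stimulated gene, rose by 1.67 (adjusted p = 0.020), and Vcam1, C4b, Igf1 and Maf were among other genes that rose, named after their values were seen. Of 7 genes tested from the list of monocyte-derived and dendritic cells, 1 was lower (Vim, adjusted p = 0.021) and none higher. Lgals3, which encodes galectin 3, stood at 602 and 358 CPM in low and 98.1 and 132 in high, and Cd9, a tetraspanin, at 410 and 337 against 94.7 and 103, both named after their values were seen. Itgb8 and Il7r were lower too. Ribosomal protein genes took 11.5% and 9.81% of the cluster's UMIs in low and 8.79% and 6.54% in high, and Malat1, a nuclear RNA, 1.06% and 1.28% against 1.85% and 2.01%. The part of this shift in the other calls was not tested.

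**Figure D4:**
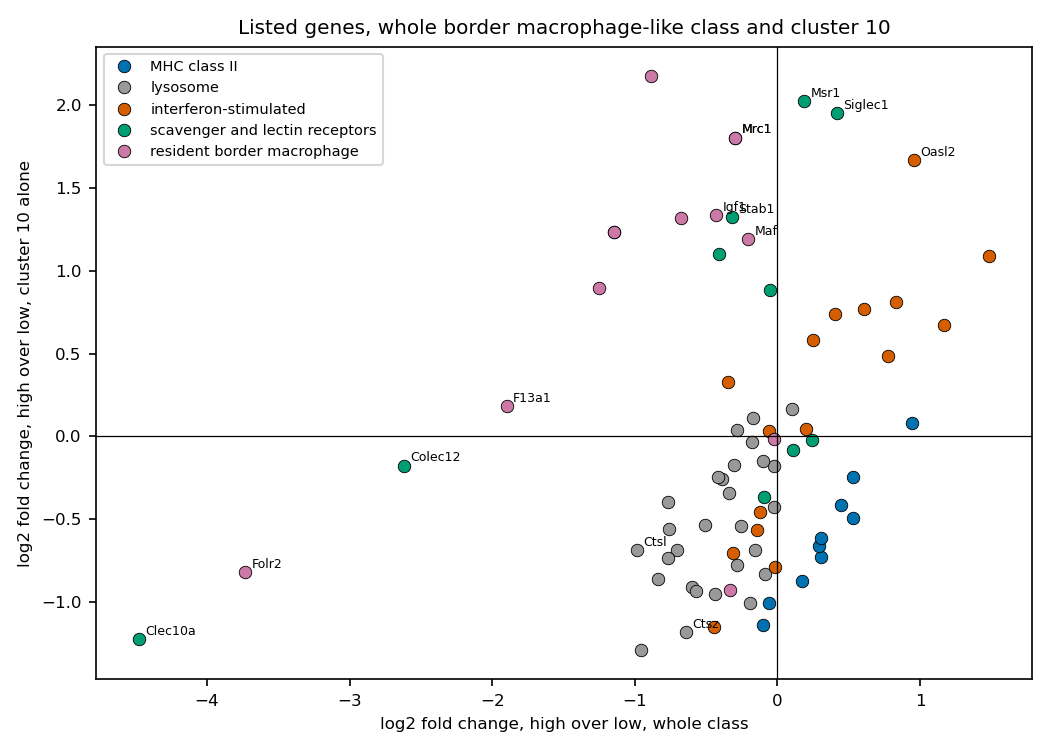
Log2 difference of high over low for listed genes in the whole border macrophage-like class (x axis) and in cluster 10 alone (y axis), 1 point per gene, coloured by list. Mrc1, Stab1 and Msr1 lie between -0.32 and 0.19 on the x axis and between 1.32 and 2.02 on the y axis.

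Cluster 9, the Lyve1-rich cluster, left 138 and 146 cells in low but only 18 and 14 in high. On 3576 genes 20 were higher (0.559%) and 20 lower (0.559%). Lyve1 was lower here too, at 627 and 442 CPM in low and 28.9 and 177 in high (1 and 6 UMIs), a fall by 2.46, and Clec10a fell by 2.92, Mgl2 by 2.27 and Cd209f by 3.65. Cd68, a lysosomal membrane protein, fell by 1.16 here (adjusted p = 0.047) without a call in the class. Lower genes of the class that were not called here include F13a1 (-0.38, adjusted p = 0.71), Folr2 (-1.30, 0.29), Ccl24 (-0.96, 0.50), Tslp (-1.09, 0.53), Clec4n (-0.68, 0.81), Pomk (-0.14, 0.99) and Ptgds (-1.62, 0.085). Ifi27l2a stood at 379 and 279 CPM in low and 1184 and 1804 in high, a rise by 2.10 (adjusted p = 2.6e-06). The dividing-cell genes Mki67 and Top2a were at 0 in high pool 1 and at 562 and 414 CPM in high pool 2, so those calls rest on 1 library of 14 cells. Rad51b rose here as well, by 1.45, while Hivep2 (adjusted p = 0.28), Iigp1 (0.42), B4galt6 (0.56), Zbp1 (0.71), Adam19 (0.98) and Parp11 (0.99) were not called.

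Fibroblast-like cells differed little in kind between the bins. Cluster 6, led by Coch, Lum, Dpep1 and Tcf21, made up 83.6% and 84.7% of the class in low and 86.2% and 88.4% in high, whereas cluster 14, led by Slc6a13 and Lama1, took 5.35% and 3.55% in low, 0% and 2.11% in high, and 89.3% in the negative library. Of 11779 genes tested 32 were higher (0.272%) and 12 lower (0.102%) by edgeR, and with the pool as a block 168 (1.43%) and 156 (1.32%). At an unadjusted p below 0.05 stood 780 of the 11779, in either direction. The count of 44 in all (0.374%) became 87 without high pool 1 and 26 without low pool 1. In cluster 6 alone 61 were higher (0.577%) and 15 lower (0.142%).

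In fibroblast-like cells, Epyc, a small leucine-rich proteoglycan (10:97644068-97682454), stood at 0.599 and 9.39 CPM in low and 123 and 73.7 in high, a rise by 4.12 on the log2 scale (SE 0.53, adjusted p = 0.0027). Bmper, a secreted regulator of BMP signalling, stood at 19.8 and 33.5 CPM in low and 146 and 108 in high, and Prg4, the lubricating proteoglycan of surfaces under shear, at 140 and 133 against 785 and 428. Gas1, a Hedgehog co-receptor, stood at 39.5 and 53.2 CPM in low and 148 and 206 in high, and the transcription factor Foxp2 at 79.1 and 111 against 298 and 229. Fn1, fibronectin, stood at 134 and 186 CPM in low and 455 and 527 in high, a rise by 1.63 (adjusted p = 0.038). Libraries that did not overlap between bins were a condition for naming Epyc, Bmper, Prg4, Gas1 and Foxp2. Of all genes tested 14.5% lay higher in this way. Those of Fn1, a list member, did not overlap either. Dapl1, Mfap5, Lbhd2, Vegfc and Scara3 rose by 1.55 to 2.71, and Bhlhe41 and Ntrk2, highest in microglia-like and neuron-like cells, by 3.16 each. S100a6, a calcium-binding protein, stood at 33.0 and 21.5 CPM in low and 143 and 210 in high (log2 rise 2.73, adjusted p = 0.0016), Cav1, the caveolin of membrane invaginations, at 6.59 and 3.58 against 38.7 and 37.7, and Jun at 38.3 and 29.1 against 107 and 130.

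Genes that fell included Crabp1, a retinoic acid-binding protein, at 243 and 210 CPM in low and 50.05 and 47.1 in high, a fall by 2.21 on the log2 scale (SE 0.27, adjusted p = 0.0020). Ccl2, a monocyte-attracting chemokine, stood at 55.7 and 49.7 CPM in low and 0 and 9.41 in high, and Angpt2, an antagonist of vessel-stabilising signals, at 88.1 and 87.7 against 18.2 and 28.2. Bmp6, Lurap1l and Ccdc68 fell by 1.71 to 2.58. Crabp1 and Ccl2 kept the call with any 1 of the 4 libraries left out, as did Epyc, Dapl1, Bmper, Gas1, Ntrk2, S100a6 and Cav1. The difference of Ccl2 became -9.00 without high pool 2 and that of Epyc 7.05 without low pool 2. The other fibroblast genes named so far lost it in at least 1 of these fits, and Ccdc68 in all 4. DESeq2 did not call Epyc (log2 difference 4.31, adjusted p = 0.19), Mfap5 (adjusted p = 0.078), Ccdc68 (0.21), Lurap1l (0.27), Vegfc (0.33) or Lbhd2 (0.35). Lbhd2 also lost the call without cells holding UMIs of another class (1.90, adjusted p = 0.11), and Scara3 in cluster 6 alone (adjusted p = 0.085). Prg4, Dapl1 and Bmp6 had no value in the fit to cluster 6 alone. Prg4 is the first leading gene of cluster 12, which held 9 cells in each high library. Ttr, highest in choroid plexus epithelial-like cells, fell by 3.30 and Cldn5 by 2.67. The choroid plexus markers summed to 454 and 306 CPM in fibroblast-like cells of low and 34.1 and 75.3 in high, the macrophage markers to 80.9 and 147 against 97.8 and 295, and the neuron markers to 22.8 and 27.7 against 100.0 and 122. The part of these sums in the calls was not tested.

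By list, 1 of 22 matrix genes rose (Fn1) and none fell by edgeR, where 0.272% and 0.102% of all genes did, with a median of 0.17, and by DESeq2 2 rose and 1 fell. Of 5 pial genes tested 2 rose (S100a6 and Postn) and none fell by edgeR, with a median of -0.18, and by DESeq2 2 rose and Lama1 fell (adjusted p = 0.040). Postn, periostin, stood at 61.7 and 69.8 CPM in low and 148 and 199 in high. Dcn, decorin, stood at 2350 and 2201 CPM in low and 3608 and 4131 in high with adjusted p = 0.41, and adjusted p = 9.3e-05 with the pool as a block. Lum, lumican, at 926 and 729 against 1677 and 1533, had adjusted p = 0.24, and adjusted p = 1.1e-05 with the block. Lama1, a laminin chain of pial basement membrane, at 180 and 224 against 68.2 and 94.1, had adjusted p = 0.11, and adjusted p = 9.3e-05 with the block. No lysosomal gene of 28, endocytic gene of 20 or scavenger receptor of 7 was called by edgeR or DESeq2, with 2, 0 and 2 of them at an unadjusted p below 0.05. Of 14 immediate early and heat shock genes 1 rose and none fell by edgeR (median 0.70, 6 higher at an unadjusted p below 0.05). Of 17 barrier, junction and caveolar genes 1 rose and 1 fell. None of 10 solute carriers was called by edgeR (median -0.86, unadjusted 5 lower and 1 higher). Nor was any of 6 MHC class II genes (median 1.63, unadjusted 4 higher). With the pool as a block 4 solute carriers were lower and 1 higher, and 2 MHC class II genes were higher. Of all genes 1.43% were higher and 1.32% lower with the block. DESeq2 called 1 solute carrier lower and no MHC class II gene. In cluster 6 alone 2 of 4 MHC class II genes tested were higher (median 3.57), where 0.577% of all genes were. Fcgrt stood at 311 and 251 CPM in low and 350 and 278 in high, without a call.

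The endothelial-like comparison rested on 10 and 15 cells in high, with 31786 and 56436 UMIs, against 4592643 and 12136865 UMIs in low. In high, cluster 1 held 100% and 93.3% of the class and cluster 2, led by the venous genes Vwf and Slc38a5, held no cell. In low, cluster 1 held 42.4% and 45.8% and cluster 2 55.4% and 51.6%. Of 5805 genes tested 24 were higher (0.413%) and 21 lower (0.362%), or 45 in all (0.775%), which became 26 without high pool 1, 11 without high pool 2, 14 without low pool 1 and 33 without low pool 2. With the pool as a block 33 were higher (0.568%) and 56 lower (0.965%), and in cluster 1 alone 12 were higher (0.365%) and 5 lower (0.152%) of 3290. In the whole class 416 of the 5805 had an unadjusted p below 0.05, in either direction.

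Among genes that rose, Trp53i11, highest in smooth muscle-like cells (2:93187548-93201759), stood at 14.8 and 13.7 CPM in low and 472 and 301 in high, a rise by 4.56 (SE 0.52, adjusted p = 1.1e-14), and by 4.00 in cluster 1 alone. Rsad2, the interferon-stimulated antiviral enzyme viperin, stood at 46.6 and 58.7 CPM in low and 315 and 248 in high, a rise by 2.24 (SE 0.45, adjusted p = 0.00028). The immediate early gene Junb stood at 68.6 and 69.4 CPM in low and 346 and 425 in high, a rise by 2.38. By list, 1 of 12 interferon-stimulated genes and 2 of 14 immediate early and heat shock genes tested rose and none fell. Their medians were 0.15 and 0.52, and 0.413% of all genes rose. Cxcl12, a chemokine of the vessel wall, stood at 748 and 1182 CPM in low and 3492 and 1701 in high. Meox1, a homeobox factor, rose by 3.81, Rad54b by 2.23 and Apold1 by 1.93. DESeq2 did not call Rad54b (adjusted p = 0.066), Lrrn3 (0.14) or Cxcl12 (0.30), and the fit to the 4 libraries alone did not call Rad54b (0.062), Lrrn3 (0.067), Apold1 (0.086) or Cxcl12 (0.15). Prnd, a prion-like protein, rose by 4.94 and Ccn3, highest in fibroblast-like cells, by 5.22, but with the pool as a block they had adjusted p = 0.18 and adjusted p = 0.16. Within cluster 1 alone Trp53i11, Rsad2 (adjusted p = 0.041) and Junb (adjusted p = 0.00041) kept the call. Cxcl12 differed there by 0.58 (adjusted p = 0.86), and its level was 2358 CPM in cluster 1 and 615 in cluster 2, the cluster with no cell in high. Meox1 (adjusted p = 0.16), Lrrn3 (0.23), Rad54b (0.39), Apold1 (0.57) and Prnd (0.82) were not called there either. Of the genes in this paragraph only Trp53i11 kept the call with each of the 4 libraries left out. Lrrn3 rose by 1.70 and stood at -0.12 without high pool 2.

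Of 10 capillary genes 1 rose and 1 fell, of 6 venous genes tested none rose and 2 fell, and of 8 arterial genes none rose and 1 fell, by edgeR, where 0.413% of all genes rose and 0.362% fell. DESeq2 called 1 capillary and 1 venous gene lower and no other gene of these 3 lists, and within cluster 1 alone none was called. Ndnf, a secreted factor, stood at 474 and 466 CPM in low and 62.9 and 106 in high, a fall by 2.51 (SE 0.49, adjusted p = 0.00013), and kept the call with any 1 of the 4 libraries left out. Within cluster 1 alone it differed by -1.86 (adjusted p = 0.057). Ndnf, Net1 and Lmntd1 are among the leading genes of cluster 2, which held no cell in high. Car4, the carbonic anhydrase of capillaries, stood at 1588 and 1176 CPM in low and 598 and 673 in high, a fall by 1.24 (adjusted p = 0.028). Slc38a5, a glutamine carrier of venous endothelium, gave 4841 UMIs in low and 3 in high, a ratio of 8.51 in CPM with a counting interval of 2.91 to 41.3. Ltbp4, Net1, Lmntd1, Paqr5 and Ptprb fell by 1.16 to 2.03, and Frmd5 and Gatm, both highest in oligodendrocyte-like cells, by 2.77 and 2.14. Within cluster 1 alone Ltbp4, Frmd5 and Gatm kept the call, while Slc38a5 (adjusted p = 0.10), Car4 (0.12), Net1 (0.28), Paqr5 (0.34), Ptprb (0.36) and Lmntd1 (0.50) did not. With each library left out in turn, Net1, Lmntd1 and Paqr5 were called in 0 of 4 fits, Ltbp4, Car4 and Ptprb in 1, and Frmd5 and Gatm in 3. DESeq2 did not call Net1 (adjusted p = 0.068), Lmntd1 (0.14) or Ptprb (0.24), and the fit to the 4 libraries alone did not call Car4 (0.059), Lmntd1 (0.064) or Ptprb (0.071). None of 18 barrier, junction and caveolar genes was called by edgeR or DESeq2 (4 lower at an unadjusted p below 0.05), with a median of -0.37 against -0.04 over all genes. Cldn5 stood at 9547 and 8503 CPM in low and 7834 and 6999 in high. Tfrc at 507 and 614 against 378 and 337, and Fcgrt at 650 and 507 against 566 and 390, were not called. Slc3a2, at 604 and 530 against 440 and 230, had adjusted p = 0.32, and adjusted p = 0.046 with the pool as a block. Macrophage markers summed to 170 and 184 CPM in these cells of low and 220 and 284 in high, and choroid plexus markers to 242 and 139 against 31.5 and 17.7, and the part of these sums in the calls was not tested.

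**Figure D5:**
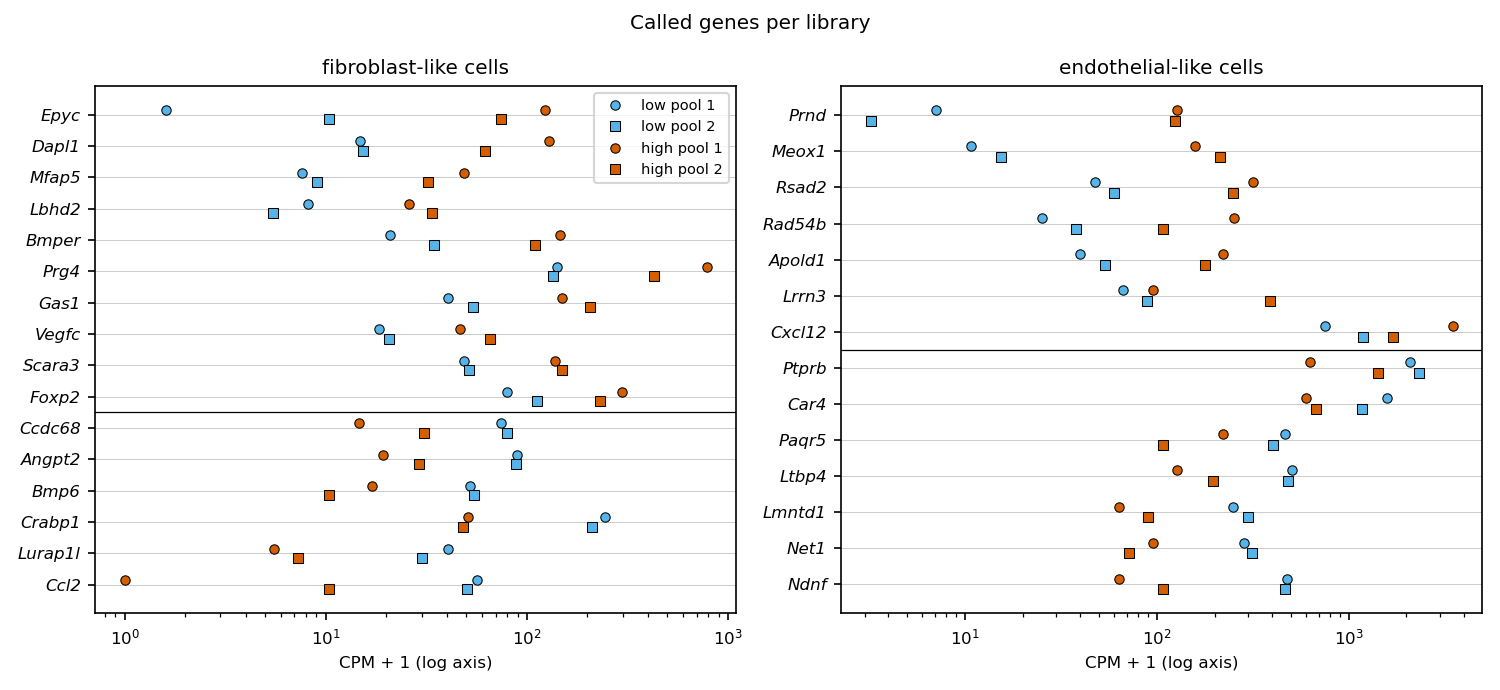
Level of each named gene (rows) in fibroblast-like and endothelial-like cells as CPM + 1 on a log axis, with 1 point per library of the low and high bins. In the fibroblast-like panel Epyc lies furthest apart between low and high, and in the endothelial-like panel the high points come from 10 and 15 cells.

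Choroid plexus epithelial-like cells, the makers of cerebrospinal fluid, had the most calls, with 211 genes higher and 211 lower of 11336 (1.86% each). With the pool as a block 593 were higher (5.23%) and 738 lower (6.51%). The count rested on single libraries, being 422 in all (3.72%), 20 without high pool 1, 7 without high pool 2 and 731 without low pool 1. The class was split into clusters 0 and 8, with cluster 0 at 103 of 379 and 55 of 432 cells in low and 14 of 28 and 31 of 76 in high. Within cluster 0 alone 1 gene was higher (0.0114%) and within cluster 8 alone 10 were higher (0.114%) and 2 lower (0.0229%). Ldhb, a lactate dehydrogenase subunit, stood at 2486 and 2509 CPM in low and 1226 and 1191 in high, a fall by 1.19 (SE 0.13, adjusted p = 0.00023) that was called with any 1 of the 4 libraries left out. A2m, a protease inhibitor, stood at 129 and 110 CPM in low and 298 and 327 in high, and the nuclear receptor Esrrg at 195 and 146 against 403 and 438. Bhmt, Sfn, Grm8, Cacnb4, Mid1, Stard13, Mamld1 and Furin rose by 0.90 to 2.06, and Krt23, Nefh, Ren1, Ptrhd1, Med7, Nqo1, Sult1c2, Prxl2b and Dync1i1 fell by 1.10 to 2.62. Cacnb4 and Stard13 had the opposite sign in cluster 8 alone. Without cells holding UMIs of another class, Mamld1 (edgeR adjusted p = 0.056), Ren1 (0.059), Dync1i1 (0.061) and Furin (0.061) lost the call. The difference of Krt23 reached -8.41 with 1 library left out. Aard, Epcam and Arhgap24, each highest in another class, rose by 3.38 to 3.65, and Ramp2, highest in endothelial-like cells, fell by 2.95. In high pools 1 and 2 Epcam stood at 36.0 and 5.45 CPM and Arhgap24 at 52.4 and 2.73, so most of both rises lay in pool 1 (28 cells). Arhgap24 passed the count filter of the main fit through high pool 1 alone, and had no value in the fit to the 4 libraries alone. Of the genes named here for this class, Ldhb and Sfn alone kept the call in all 4 fits that left out a library. The fit to the 4 libraries alone did not call Ren1 (adjusted p = 0.054), Mamld1 (0.057), Med7 (0.057) or Dync1i1 (0.061). DESeq2 did not call Mamld1 (adjusted p = 0.052) and gave no adjusted p for Bhmt, Sfn, Furin, Krt23, Nefh, Ren1, Ptrhd1, Med7, Nqo1, Sult1c2, Dync1i1, Aard, Epcam, Arhgap24 and Ramp2. Genes that rose spanned a median of 205 kb of the genome, genes that fell 8.74 kb and all genes tested 26.2 kb, while Malat1 took 0.216% and 0.190% of UMIs in low and 0.369% and 0.356% in high. The part of nuclear RNA in these calls was not tested.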

How the data were processed

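Single cells from pooled mouse brains, sorted by antibody fluorescence, were sequenced in droplet libraries. The deposited values are raw UMI counts, and the submitters' processing notes name Cell Ranger 7.1.0, Seurat 4 and 5, mm10 and GRCm38, with no parameters. A deposited index, with entries of another kind than measurements (no unit), tied each barcode suffix to its library, and library, pool and bin came from the labels.

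Barcodes were kept at 500 or more genes, 800 or more UMIs and at most 10% mitochondrial UMIs. Doublets were predicted per library with Scrublet as run by scanpy 1.11.5 at its automatic threshold and removed (112 of 7367). The 7 control IgG libraries (19979 cells) were clustered together (2000 variable genes, 50 components, 15 neighbours, Leiden resolution 1) into 26 clusters, and named from marker lists. The thresholds of the naming rule were set after the clusters had been seen. Cells were assigned to the male or the female of a pool by Xist and Y-linked RNA.

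UMI counts were summed per class and library and fitted with edgeR 4.0.16 (quasi-likelihood, TMM factors, filterByExpr, 1 mean per bin, contrast high minus low, Benjamini-Hochberg adjustment over all genes tested in the class). Cell numbers per class were fitted in the same way with the log of kept cells as offset. A class needed 10 cells in each high and low library. An SE is the absolute log2 difference divided by the square root of F. The spread behind a p-value came from the differences between the 2 pools, of 2 mice each, of the low, medium and high bins. It was estimated in part jointly over the genes of a class, or over the classes for cell numbers. Very small p-values thus do not rest on 2 pools of a single class alone. The main fit did not pair the pools, and the fit with the pool as a block did. Kept UMIs were 1735776 and 3164508 in high and 11132137 and 20401724 in low. Intervals on single shares are exact binomial or Poisson at a level of 0.95 and cover counting error only. No value column was left without a sample (0 columns). Names and coordinates of 32158 genes matched the annotation on GRCm38.

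List counts, with examples, are given for some of the lists, and for none in choroid plexus epithelial-like cells. Genes named by rule were, per class, up to 10 in each direction with the largest log2 difference among those called. These had more than 3 UMIs in each group, no overlap of the 4 libraries in CPM, and a level of at least 0.5 of that in the class where the gene was highest. The same rule without the last condition gave the 3 largest in each direction, some of them already named. Gm, Rik, mitochondrial and ribosomal genes were left out. In border macrophage-like cells 1 gene that met the rule is not reported here. Members and lists were chosen with earlier results of these data known.

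The same numbered pool is the same 2 animals in each bin, per the labels. Across genes, differences between pools correlated between bins at 0.26 to 0.39 in border macrophage-like, 0.32 to 0.45 in fibroblast-like, 0.039 to 0.12 in endothelial-like and 0.063 to 0.18 in choroid plexus epithelial-like cells. Alternatives were other tools, scaling, filters, clusterings, the pool as a block and each library left out. Fits with the unnamed cluster included and on single clusters were added after the data had been seen. Scripts were tested on simulated counts.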

Additional observations from a re-analysis of the deposited data

Results flagged for a closer look

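An unnamed cluster of macrophages appeared in pool 2 libraries alone. It made up 15.5% of the kept cells of high pool 2 (111 of 718, exact 95% interval 12.9 to 18.3%), with 41 cells in medium pool 2, 14 in low pool 2, 1 in the negative library and 0 in each pool 1 library. In high pool 2 it held 68 of 229 cells assigned to the male (29.7%) and 6 of 301 assigned to the female (1.99%). Its 167 cells had a median of 4544 UMIs, and beside C1qa they carried Acp5 (1011 CPM), a phosphatase of bone-resorbing and activated macrophages, Cd72 (1599 CPM) and Cd52 (5087 CPM). No class was given to it, so it stands outside the comparisons of named classes.

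Cells with pituitary hormone RNA, which do not belong to the dissected region, made up 3.10% of medium pool 1 (21 cells). A further 7 such cells lay in low pool 1 and none in either high library.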

How the results depend on the processing

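Of 14 classes, 7 were called; the count was 9 of 13 among cells outside the endothelial-like class, with fibroblast-like, monocyte-like (adjusted p = 0.0072) and neuron-like cells (0.011) added, 3 among cells outside the border macrophage-like class, 4 in male cells alone and 6 to 7 with each library left out. The border macrophage-like rise ranged from 2.61 to 3.09 and the endothelial-like difference from -4.91 to -4.54 over those same omissions. The fibroblast-like difference of 0.16 became -0.93 outside the endothelial-like class, 1.71 outside the border macrophage-like class, 0.91 with TMM factors, -0.13 in female cells, and -0.076 to 0.43 with each library left out. Of 94 genes called in border macrophage-like cells, the count became 31 by DESeq2, 268 without a count filter, 636 with the replicate block, 44 over genes highest in the class, 347 without doublet removal, 236 at Leiden resolution 2, 40 in cluster 9 alone, 20 with the unnamed cluster and 46 to 65 with each library left out. For fibroblast-like cells 44 became 199 without a count filter, 100 on the 4 libraries alone, 324 with the replicate block, 21 over genes highest in the class, 74 without doublet removal, 79 without cells holding UMIs of another class, 76 in cluster 6 alone and 26 to 87 with each library left out. For endothelial-like cells 45 became 89 with the replicate block, 20 over genes highest in the class, 17 in cluster 1 alone and 11 to 33 with each library left out. For choroid plexus epithelial-like cells 422 became 797 without a count filter, 1331 with the replicate block, 158 over genes highest in the class, 1 and 12 in clusters 0 and 8, and 7 to 731 with each library left out. Signs turned for astrocyte-like cells (-0.86 outside the endothelial-like class, -0.0082 at Leiden resolution 0.5, -1.27 in females, -0.057 without high pool 2 and up to 0.47 with other libraries left out), choroid plexus epithelial-like (0.62) and smooth muscle-like cells (0.72, and -6.60 to 0.16 with each library left out) outside the border macrophage-like class, and monocyte-like cells (0.20 with TMM factors, 0.95 outside the border macrophage-like class, 0.0069 in females). They also turned for F13a1 (0.19 in cluster 10 alone), Lrrn3 (-0.12 without high pool 2 and up to 2.09) and, in choroid plexus cluster 8, Cacnb4 (-0.42), Stard13 (-0.13) and Slc38a2 (-0.43). Apart from Prnd and Ccn3, no named gene lost its call under the block. The causes were not tested. A minimum of 20 endothelial-like cells per library could not be run with 10 and 15 cells.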
